A study of Mus musculus with 9 samples.

Results

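The mitochondrial carrier family Slc25 was described in ventricular RNA of adult mice, taking every row of the deposited gene count table whose symbol starts with Slc25a. This gave 47 genes of 23457 rows, which were grouped by the substrate that each carrier is known to move. The samples were 9 hearts of C57BL/6J background: 5 were wild type, and 4 carry the label of a germline knockout of Parkin. The labels give neither the allele nor an age beyond adult, and no treatment. Parkin is a ubiquitin ligase that takes part in the removal of damaged mitochondria. The mouse hearts accompanied work on Drosophila, and the design sets knockout hearts against wild type. RNA came from the frozen apex of the ventricles, while the tissue label names the whole heart. The labels number the hearts but do not say more of litter, sex or day, so p-values measure the spread between these hearts. The hearts are called labelled knockouts because their genotype rests on the labels.

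Carriers of this family sit in the inner membrane of mitochondria, with a few exceptions, and exchange nucleotides, phosphate, metabolites and cofactors between matrix and cytosol. They are encoded in the nucleus and imported into mitochondria after translation. In cardiac muscle the ADP/ATP carriers return ATP to the contractile machinery, the carnitine carrier brings in fatty acids as acylcarnitines, and the aspartate-glutamate and oxoglutarate carriers serve the malate-aspartate shuttle.

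The ADP/ATP carriers Slc25a4 and Slc25a5 are the abundant pair on which the first comparison turns, and they are close relatives. Their coding sequences are both 894 bases long and are identical at 692 positions (77.4%). The first 90 coding bases of each, 5′ to 3′ from the GRCm38 transcripts of GENCODE, show how reads of the pair can be told apart, with the 24 bases that differ in capitals.
Slc25a4: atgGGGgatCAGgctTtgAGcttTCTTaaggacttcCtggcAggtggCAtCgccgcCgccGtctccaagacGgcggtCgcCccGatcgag
Slc25a5: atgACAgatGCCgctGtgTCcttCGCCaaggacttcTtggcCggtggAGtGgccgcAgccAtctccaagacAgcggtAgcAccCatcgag

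Promoters are shown for this pair and for the members with the largest rise (Slc25a33) and the largest fall (Slc25a16) of the 37 tested, a choice made after their values were seen. Each is the 120 bases before the RefSeq start on GRCm38.p6, read 5′ to 3′ on the gene's strand, with matches to 4 motifs, searched on both strands, in capitals. These are the TATA box (TATAA), the CCAAT box (CCAAT), the GC box (GGGCGG) and the E-box (CACGTG). They lie at chr8:46211063-46211182 (minus strand), chrX:36795477-36795596 (plus), chr4:149774268-149774387 (minus) and chr10:62920513-62920632 (plus).
Slc25a4: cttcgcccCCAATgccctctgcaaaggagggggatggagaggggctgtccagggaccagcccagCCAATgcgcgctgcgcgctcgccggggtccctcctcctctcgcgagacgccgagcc
Slc25a5: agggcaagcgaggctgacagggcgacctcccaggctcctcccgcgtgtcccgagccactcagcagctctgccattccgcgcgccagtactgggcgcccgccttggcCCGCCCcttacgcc
Slc25a33: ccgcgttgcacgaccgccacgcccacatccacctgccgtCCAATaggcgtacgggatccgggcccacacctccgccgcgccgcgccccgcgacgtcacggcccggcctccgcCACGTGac
Slc25a16: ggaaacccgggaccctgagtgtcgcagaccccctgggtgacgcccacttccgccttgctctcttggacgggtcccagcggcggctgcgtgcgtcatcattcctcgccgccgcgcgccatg

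The promoter of Slc25a4 held CCAAT, that of Slc25a5 held GGGCGG on the other strand, that of Slc25a33 held CCAAT and CACGTG, and none of the 4 motifs was in the window of Slc25a16. Of 36 family members matched to a RefSeq promoter, 19 held GGGCGG, 11 CCAAT, 3 CACGTG and 1 TATAA. Over all 27025 promoters the shares were 26.9%, 22.1%, 3.64% and 12.4%. The median number of CpG dinucleotides in the window was 8.5 in the family and 3 over all promoters. A match describes letters only and shows neither binding nor a cause.

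Libraries held 4415183 to 20827699 assigned reads, with WT hearts 2 and 3 the shallowest. Reads of mitochondrially encoded genes made up 32.6% to 58.2% in wild type and 10.04% to 15.41% in the labelled knockouts. The slope of each heart's log2 deviation on transcript GC content also separated the groups, at -0.40 to -0.19 per 10 percentage points in wild type and 0.17 to 0.65 in the labelled knockouts, so genotype and GC trend cannot be told apart. Each member is therefore given by edgeR as the counts stand and again with GC and length trends removed, called corrected below. Cardiomyocyte markers were abundant, with a summed level of 54571 to 60848 CPM (counts scaled to library size and TMM factor) in wild type and 72029 to 81646 in the labelled knockouts. By edgeR 3 of 7 were called higher, where 26.2% of all genes were, and with correction 1 was higher and 1 lower. The atrial markers Myl7 and Sln summed to at most 1.002 CPM in any heart. Skeletal muscle markers summed to 0.843 to 5.22 CPM in wild type and 9.51 to 22.3 in the labelled knockouts. Most of this sum was Myh2 (mean 1.23 and 14.3 CPM). Myh4 rose as well at low counts (mean 0.467 and 1.596 CPM), and its groups did not overlap. Both genes were called higher in both fits, Myh2 at 3.82 (corrected 3.62) and Myh4 at 1.76 (corrected 1.61). Tnnt3 had 0.433 and 0.443 CPM and Myh1 0.166 and 0.283, and neither was tested by edgeR. In the deposited FPKM, Myh1 had 5.15 to 8.23 in wild type and 3.06 to 22.8 in the labelled knockouts. Myh2 averaged 0.219 and 4.92 FPKM, so counts and FPKM conflict for Myh1. By limma-trend on log2(FPKM + 1), neither Myh1 (0.09, adjusted p = 0.86) nor Tnnt3 (0.17, adjusted p = 0.38) was called. Of 4 fibroblast markers 2 were higher and 1 lower, with Col3a1 at 1.20 (corrected 1.04) and Dcn at -1.21 (corrected -0.70). Of 3 macrophage markers 1 was higher, Csf1r at 0.42 (not called with correction). The other 2 were lower, Cd68 at -1.04 (corrected -1.35) and Emr1 at -0.75 (not called with correction). Of 3 endothelial markers 1 was lower, and a different one with correction. The part of these cell types in the results was not tested. In whole tissue, fewer cells of a type and less RNA per cell cannot be told apart.

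Across the family, 37 of 47 members passed the filter on low counts. Of these, 12 were higher and 8 lower in the labelled knockouts at an adjusted p below 0.05 (edgeR quasi-likelihood test, Benjamini-Hochberg over all genes tested), and 17 were not called. Over all 12640 genes tested 51.4% were called, 26.2% higher and 25.2% lower, so the family's share of calls is near that of genes in general. The median log2 fold change, labelled knockout over wild type, was 0.08 in the family and -0.01 over all genes. At least 2-fold changes were called in 5 members upward (7.83% of all genes) and 2 downward (10.1%). In 15 of the 37 the CPM of the groups did not overlap, against 41.6% of all genes.

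The corrected fit called 10 members higher and 9 lower, where 38.0% of all genes were called, 18.6% higher and 19.5% lower. Called the same way in both fits were 11 members, against 26.6% of all genes. Of the 20 called without correction, 9 lost the call with it: Slc25a1, Slc25a4, Slc25a10, Slc25a25, Slc25a28 and Slc25a47 from the higher, Slc25a36, Slc25a37 and Slc25a46 from the lower. A further 8 were called by the corrected fit alone, Slc25a12, Slc25a15, Slc25a24 and Slc25a30 higher and Slc25a22, Slc25a34, Slc25a39 and Slc25a44 lower. Single hearts decided some calls. Without correction, leaving out 1 heart ended the call of Slc25a1 (without WT heart 4 or 5 or KO heart 3 or 4), Slc25a13 (WT 3 or 5, KO 2 or 3), Slc25a25 (WT 3 or 4, KO 2 or 4), Slc25a37 (WT 4, KO 2 or 3) and Slc25a46 (WT 2, 3 or 5, KO 1, 2 or 3). In the corrected fit it ended the call of Slc25a24 (KO 4), Slc25a38 (WT 5), Slc25a51 (WT 2, KO 3 or 4), Slc25a44 (WT 1 or 4, KO 2 or 3) and Slc25a29 (WT 2, 3 or 5, KO 1, 2 or 3). Called under each of the 20 alternative fits of the counts were 8: Slc25a5, Slc25a26, Slc25a33 and Slc25a38 higher, Slc25a16, Slc25a23, Slc25a35 and Slc25a42 lower. By limma-trend on log2(FPKM + 1), Slc25a23 (-0.35), Slc25a35 (-0.36) and Slc25a42 (0.03) were not called. The rest of the 8 were called in the same direction there. With each heart's FPKM centred on its median, Slc25a23, Slc25a35 and Slc25a42 were called lower.

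**Figure D1:**
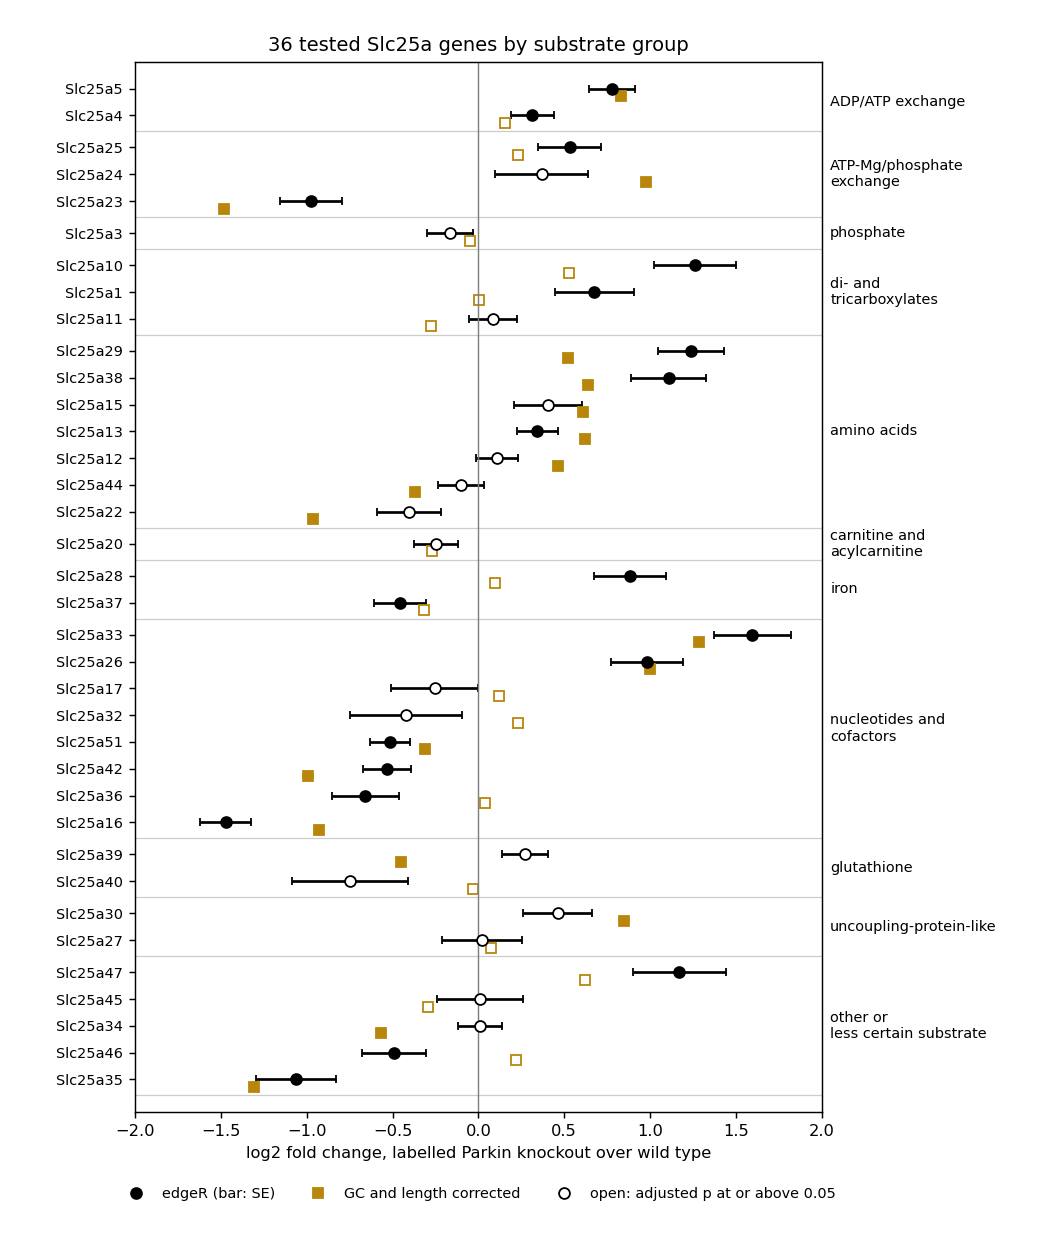
Log2 fold change (labelled knockout over wild type) of 36 of the 37 tested members by substrate group, from edgeR with its standard error (circles, bars) and with GC and length trends removed (squares). Filled symbols passed the adjusted p threshold of 0.05, and open symbols did not. The fits part most for Slc25a28, at 0.88 and 0.09.

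The ADP/ATP carriers lead the family in abundance. Slc25a4, the main carrier of heart muscle, had 2369.7, 2087, 2388, 2519 and 2450.0 CPM in WT hearts 1 to 5 and 3249.7, 3001, 2895 and 2599.5 in KO hearts 1 to 4. The groups did not overlap, but the lowest knockout heart was close to the highest wild-type heart. The log2 fold change was 0.31 ± 0.13 (SE; edgeR adjusted p = 0.049) and 0.16 with correction (adjusted p = 0.28). The call was kept in 1 of the 9 fits that each left out a heart, the one without KO heart 4.

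Slc25a5, the carrier of proliferating and non-muscle cells, had 121, 80.8, 82.0, 99.7 and 97.7 CPM in wild type and 181, 147, 171 and 166 in the labelled knockouts. All 4 knockout hearts stood above all 5 wild-type hearts. It rose by 0.78 ± 0.13 (edgeR adjusted p = 2.7e-04), and by 0.83 with correction. Of its 50-base stretches, 46.6% also occur in pseudogenes such as Gm5560 and Slc25a5-ps, against 0% for Slc25a4, so its reads depend on how shared reads were counted. Slc25a31, the testis carrier, had at most 9 reads in a heart and was not tested.

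Slc25a3 carries phosphate for ATP synthesis. Its level was 388, 334, 326, 358 and 348 CPM in wild type and 395, 264, 277 and 315 in the labelled knockouts. The groups overlapped, with KO heart 1 the highest of all 9. The difference did not pass the test (log2 fold change -0.17 ± 0.13, edgeR adjusted p = 0.31). Slc25a20, the carnitine-acylcarnitine carrier, had 101, 120.01, 95.4, 92.5 and 101 CPM in wild type and 97.2, 93.8, 76.2 and 74.9 in the labelled knockouts. Its groups overlapped too, and it was not called (-0.25 ± 0.13, edgeR adjusted p = 0.11).

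**Figure D2:**
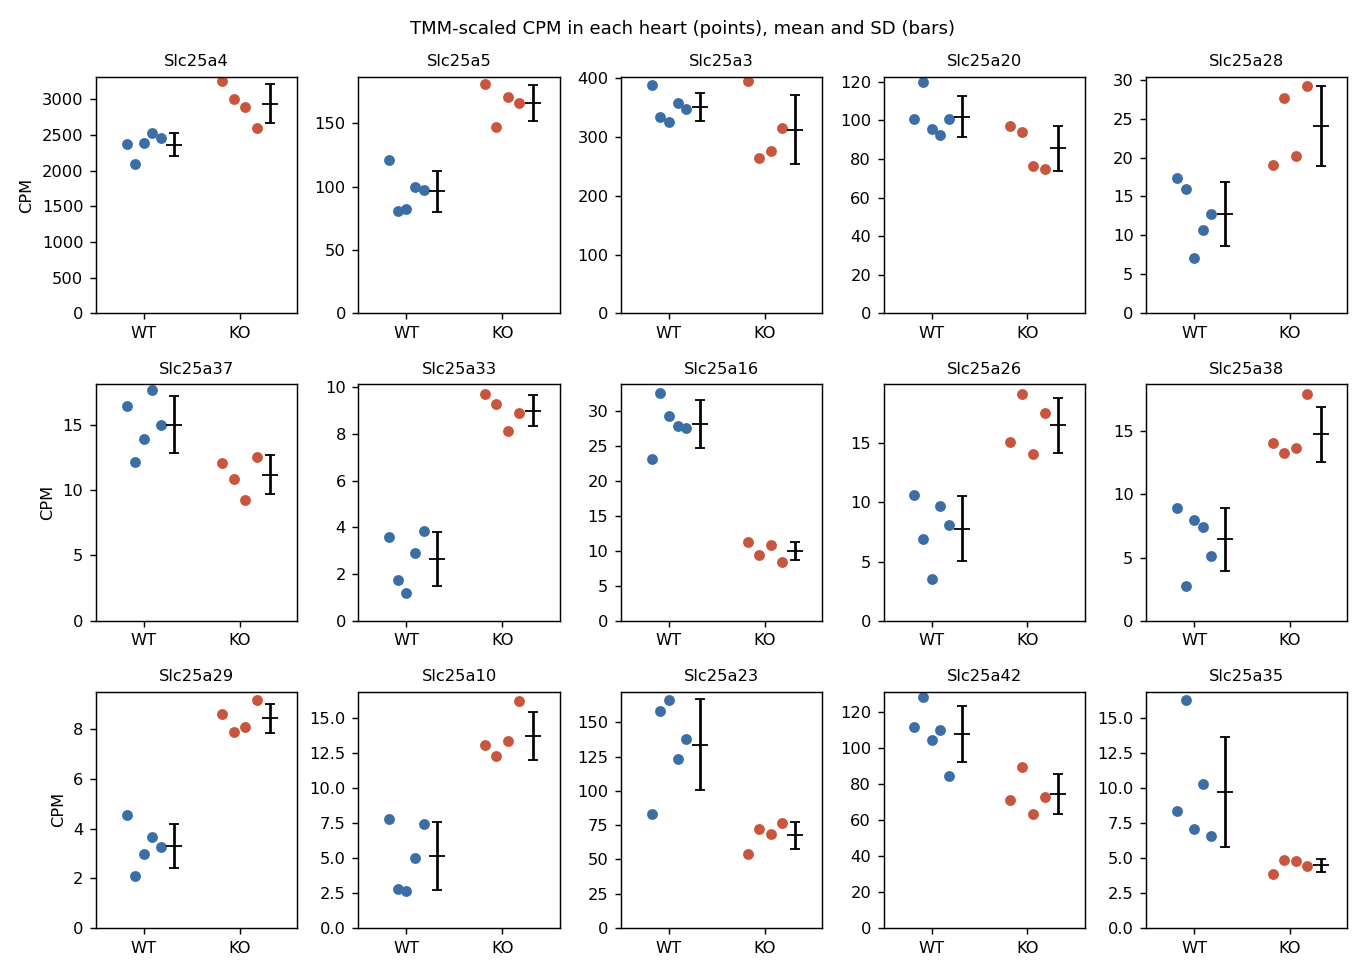
CPM of 15 members in each heart (points) with group mean and SD (bars), on axes that start at 0. WT is wild type (5 hearts) and KO the labelled knockout (4). Slc25a5 lies at 80.8 to 121 in wild type and 147 to 181 in the labelled knockouts, while Slc25a3 overlaps.

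The ATP-Mg/phosphate carriers set the size of the adenine nucleotide pool in the matrix, and they did not move together. Slc25a23 had 83.1, 158, 166, 123 and 138 CPM in wild type and 53.6, 71.9, 68.3 and 76.5 in the labelled knockouts. The groups did not overlap, and WT heart 1 stood nearest to the knockouts. It fell by 0.98 ± 0.18 on the log2 scale (edgeR adjusted p = 4.8e-04), and by 1.48 with correction. Slc25a25 rose (0.53, edgeR adjusted p = 0.025) but not with correction (0.23), and Slc25a24 was called by the corrected fit alone (0.37 without, 0.97 with). Slc25a41 had at most 2 reads in a heart.

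Among di- and tricarboxylate carriers, Slc25a11, the oxoglutarate-malate carrier, was the most abundant. It had 348, 262, 240.2, 365 and 279 CPM in wild type and 336, 324, 325 and 285 in the labelled knockouts. The groups overlapped, and neither fit called it (0.08 without correction, -0.28 with). Slc25a10, the dicarboxylate carrier, had 7.80, 2.77, 2.67, 4.99 and 7.43 CPM in wild type and 13.02, 12.3, 13.3 and 16.2 in the labelled knockouts. The groups were apart, and it rose by 1.26 ± 0.24 (edgeR adjusted p = 5.5e-04). With correction this became 0.53 (adjusted p = 0.061). Slc25a1, the citrate carrier, went from 0.68 to 0.01 with correction.

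Of 9 amino acid carriers 7 were tested. Without correction 3 were higher and 0 lower, where 26.2% and 25.2% of all genes were. With correction 5 were higher and 2 lower, where 18.6% and 19.5% of all genes were. Slc25a12, the aspartate-glutamate carrier of muscle, had the highest level per length, at 198, 140.1, 149.9, 181 and 166 CPM in wild type and 191, 185, 176 and 169 in the labelled knockouts. The groups overlapped, and only the corrected fit called it (0.46, edgeR adjusted p = 0.0074). Its paralog Slc25a13 was called in both fits (0.34 and 0.62). Slc25a38, which brings in glycine for haem synthesis, had 8.97, 2.77, 7.996, 7.44 and 5.11 CPM in wild type and 14.1, 13.3, 13.7 and 17.97 in the labelled knockouts. All knockout hearts were above all wild-type hearts, and it rose by 1.11 ± 0.22 (edgeR adjusted p = 7.9e-04; corrected 0.64). Slc25a29, a carrier of basic amino acids, had 4.53, 2.08, 2.96, 3.65 and 3.25 CPM against 8.60, 7.89, 8.09 and 9.16. Its groups were also apart (1.24 ± 0.19, edgeR adjusted p = 1.2e-04; corrected 0.52, a call kept in 3 of 9 corrected fits that left out a heart). Slc25a22, a glutamate carrier, was lower in the corrected fit alone (-0.41 without, -0.96 with).

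The iron carriers, the mitoferrins, moved in opposite directions without correction. Slc25a28, mitoferrin 2, had 17.4, 16.0, 7.11, 10.7 and 12.8 CPM in wild type and 19.0, 27.6, 20.2 and 29.2 in the labelled knockouts. The groups did not overlap, and it rose by 0.88 ± 0.21 (edgeR adjusted p = 0.0029), a difference of 0.09 with correction. Slc25a37, mitoferrin 1 of erythroid cells, had 16.5, 12.1, 13.9, 17.7 and 14.97 CPM against 12.1, 10.9, 9.25 and 12.5. The groups overlapped, and it fell by 0.46 ± 0.15 (edgeR adjusted p = 0.021), or 0.32 with correction (adjusted p = 0.092). Of 5 erythroid markers, the globins Hba-a1 and Hbb-b1 are listed at 0 in all 9 hearts of the count table but are abundant in the FPKM table, so their counts say nothing of blood RNA. Hba-a1 had 844 to 2470.3 FPKM in wild type and 2401 to 3657 in the labelled knockouts, which overlap, and Hbb-b1 had 113 to 427 against 469 to 977, which do not. By limma-trend on log2(FPKM + 1), Hbb-b1 was higher by 1.48 (adjusted p = 0.0074) and by 0.99 with median centring (adjusted p = 0.018), and Hba-a1 by 0.98 (adjusted p = 0.028) but not with centring (0.49, adjusted p = 0.11). Alas2, the erythroid enzyme of haem synthesis, was called in neither table (-0.19 by edgeR, adjusted p = 0.53). The whole list summed to 11.3 to 21.7 CPM in wild type and 8.59 to 20.4 in the labelled knockouts, without the globins. The part of blood cells in the Slc25a37 difference was not tested.

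Base composition differs widely within the family. Coding bases 301 to 390 of Slc25a28, a member rich in G and C, and of Slc25a36, a pyrimidine nucleotide carrier poor in them, are set out with G and C in capitals.
Slc25a28: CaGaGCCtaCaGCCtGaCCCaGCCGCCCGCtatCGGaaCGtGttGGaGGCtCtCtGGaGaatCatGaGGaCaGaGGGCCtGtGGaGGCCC
Slc25a36: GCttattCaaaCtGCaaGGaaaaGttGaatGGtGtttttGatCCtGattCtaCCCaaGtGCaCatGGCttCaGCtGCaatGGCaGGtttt
G and C make up 63.3% of the first stretch and 42.2% of the second. Slc25a28 went from 0.88 to 0.09 with correction and Slc25a36 from -0.66 to 0.04. Across the 37 members the Spearman correlation of fold change with transcript GC content was 0.43 without correction and -0.23 with it, as a description over genes that share the same 9 libraries. Over all genes it was 0.61 and 0.01. Of 12 members with at least 55% GC, 6 were higher and 2 lower (median 0.49, all such genes 0.59). With correction 2 were higher and 5 lower (median -0.07). Of 6 members below 45%, 0 were higher and 3 lower (median -0.58, all such genes -0.63). With correction 1 was higher and 1 lower (median 0.13). Over all genes tested 26.2% were higher and 25.2% lower, and with correction 18.6% and 19.5%. The share called among all genes of like GC content was not computed.

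**Figure D3:**
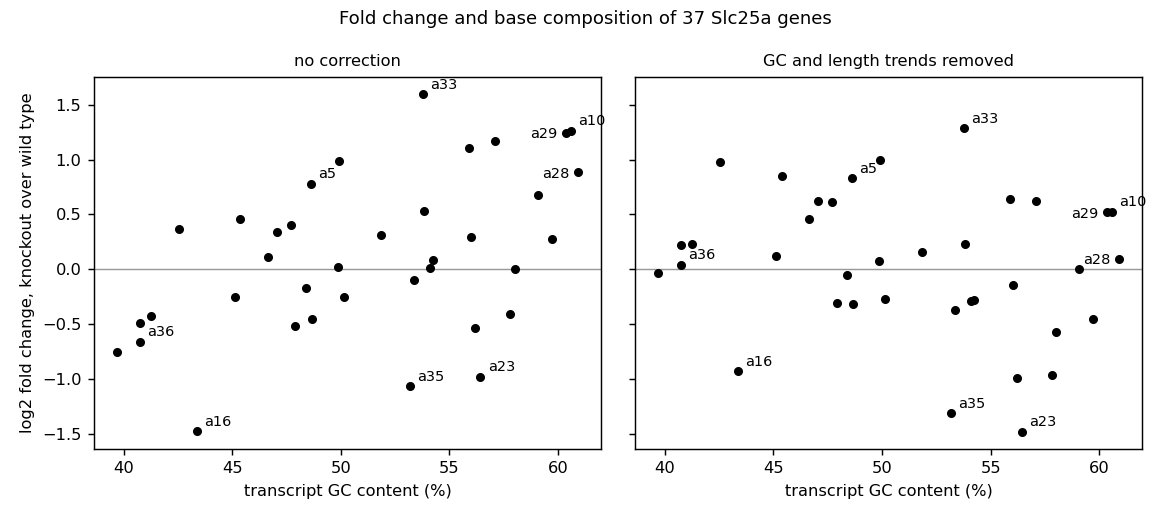
Log2 fold change (labelled knockout over wild type) against transcript GC content for the 37 tested members, without correction (left) and with GC and length trends removed (right). Each point is a gene. The Spearman correlation is 0.43 on the left and -0.23 on the right.

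Nucleotide and cofactor carriers held both the largest rise and the largest fall of the family. Slc25a33, a pyrimidine nucleotide carrier, had 3.59, 1.73, 1.18, 2.88 and 3.83 CPM in wild type and 9.69, 9.27, 8.14 and 8.88 in the labelled knockouts. The groups were well apart, although WT hearts 2 and 3 rest on 5 and 4 reads. It rose by 1.596 ± 0.23 (edgeR adjusted p = 6.5e-05), and by 1.29 with correction. It shares 281 exonic bases with Gm13068, and the libraries do not keep strand. Other called members also share exonic bases with neighbouring genes: Slc25a37 (473), Slc25a46 (383), Slc25a25 (379), Slc25a10 (228), Slc25a23 (168), Slc25a26 (144) and Slc25a51 (125). Slc25a16, linked to coenzyme A, had 23.1, 32.6, 29.3, 27.9 and 27.6 CPM against 11.2, 9.45, 10.9 and 8.37. No heart of one group reached the other, and it fell by 1.47 ± 0.15 (edgeR adjusted p = 6.8e-06), or 0.93 with correction.

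Slc25a42, a coenzyme A carrier, had the highest level per length of this group, at 112, 128, 105, 110.1 and 84.6 CPM in wild type and 71.4, 89.8, 63.3 and 73.0 in the labelled knockouts. WT heart 5 lay below KO heart 2, so the groups overlapped. It fell by 0.53 ± 0.14 (edgeR adjusted p = 0.0054), and by 0.99 with correction. Slc25a26, which brings in S-adenosylmethionine, had 10.7, 6.94, 3.55, 9.69 and 8.12 CPM against 15.2, 19.2, 14.1 and 17.6. The groups were apart, and it rose by 0.98 ± 0.21 (edgeR adjusted p = 0.0014), with 0.999 after correction. Slc25a51, the NAD carrier, fell in both fits (-0.51 and -0.31). The sign turned with correction for Slc25a17 (-0.25 to 0.12) and Slc25a32 (-0.42 to 0.23), and neither gene was called in either fit.

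Of the glutathione carriers, Slc25a39 had 123, 95.04, 97.1, 101 and 102 CPM in wild type and 109, 137, 108 and 148 in the labelled knockouts. The groups overlapped. Its sign turned from 0.27 (edgeR adjusted p = 0.097) to -0.45 (adjusted p = 0.0024) with correction. Slc25a40 was called by neither fit (-0.75 and -0.03). Among uncoupling-protein-like carriers, Slc25a30 had 3.23, 3.12, 2.07, 3.02 and 3.83 CPM in wild type and 4.42, 4.40, 3.84 and 4.72 in the labelled knockouts. Its groups did not overlap, but WT heart 5 and KO heart 3 lay next to each other. Slc25a30 was called by the corrected fit alone (0.46 without, 0.85 with), and Slc25a14 had at most 12 reads in a heart.

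Among carriers of other or less certain substrate, Slc25a34 was the most abundant, at 180.3, 189, 138, 158 and 145 CPM in wild type and 154, 165, 147 and 185 in the labelled knockouts. The groups overlapped, with a fold change of 0.01, and the corrected fit called it lower (-0.57, edgeR adjusted p = 0.0012). Slc25a35 had 8.34, 16.3, 7.11, 10.3 and 6.62 CPM against 3.85, 4.88, 4.80 and 4.44. The groups were apart, and it fell by 1.07 ± 0.23 (edgeR adjusted p = 0.0016), or 1.31 with correction. It shares 1151 exonic bases with Rangrf, so reads of the overlap cannot be assigned without strand. Slc25a47 had 1.08, 1.73, 1.18, 2.11 and 1.74 CPM against 2.85, 3.31, 3.49 and 4.58. Its groups were apart at low counts (1.17 ± 0.27, edgeR adjusted p = 0.0022; corrected 0.62, adjusted p = 0.074). The sign turned with correction for Slc25a46, a protein of the outer membrane (-0.49 to 0.22), and for Slc25a45 (0.01 to -0.29).

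Paired carriers of like substrate were compared within each heart as log2 ratios of reads, with 0.5 added, which do not depend on library scaling. There were 7 pairs, tested by two-sided exact permutation over all splits of the hearts and adjusted over the 7. The ratio of Slc25a4 to Slc25a5 averaged 4.63 ± 0.21 (SD, n = 5) in wild type and 4.14 ± 0.16 (SD, n = 4) in the labelled knockouts, a difference of -0.49 with overlapping groups (exact permutation adjusted p = 0.028). On corrected counts it was -0.69. Slc25a33 to Slc25a36 differed by 2.44 and Slc25a23 to Slc25a24 by -1.21, both without overlap (exact permutation adjusted p = 0.028), and on corrected counts by 1.38 and -2.29.

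Slc25a28 to Slc25a37 differed by 1.37 without overlap (exact permutation adjusted p = 0.028), and by 0.45 on corrected counts, which did not pass. Slc25a39 to Slc25a40 differed by 1.04 (exact permutation adjusted p = 0.028) and turned to -0.45 on corrected counts. Slc25a12 to Slc25a13 differed by -0.22 (exact permutation adjusted p = 0.048) with overlap, and by -0.15 on corrected counts, which did not pass (exact permutation adjusted p = 0.17). Slc25a22 to Slc25a18 differed by -1.88 (exact permutation adjusted p = 0.028), but Slc25a18 had 0 reads in 3 hearts and at most 7 in any, so this value rests on the 0.5 added.

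**Figure D4:**
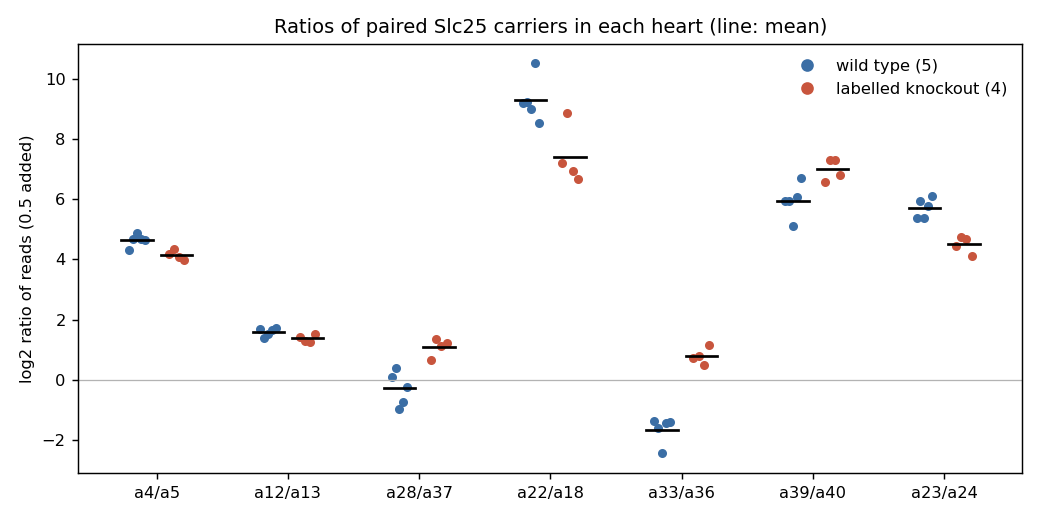
Log2 ratio of reads (0.5 added) for 7 pairs of carriers in each heart, with group means as lines. Slc25a33 to Slc25a36 lies below 0 in all 5 wild-type hearts and above 0 in all 4 labelled knockouts.

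Levels per length were read from the deposited FPKM. In wild type Slc25a4 came first at 2164 ± 558 FPKM (SD, n = 5), followed by Slc25a3 at 222 ± 63.5, Slc25a11 at 152 ± 60.0, Slc25a5 at 78.3 ± 29.8 and Slc25a39 at 59.0 ± 18.9. Across wild-type hearts only the ranges of Slc25a4 and Slc25a3 were apart, and every other neighbouring pair in the wild-type order overlapped. Within hearts, the order of these 5 held in each of the 5 wild-type hearts and each of the 4 labelled knockouts. In the labelled knockouts the same 5 led, with Slc25a4 at 3964 ± 568 and Slc25a5 at 195 ± 24.1 (SD, n = 4). By limma-trend on log2(FPKM + 1), 20 members were higher and 1 lower, but 53.3% of all genes were called on this scale, 47.2% higher and 6.09% lower, with a median of 0.44 over all genes and 0.59 in the family. With each heart centred on its median, 11 were higher and 10 lower (53.9% of all genes called, 25.4% and 28.4%), so the split depends on scaling.

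**Figure D5:**
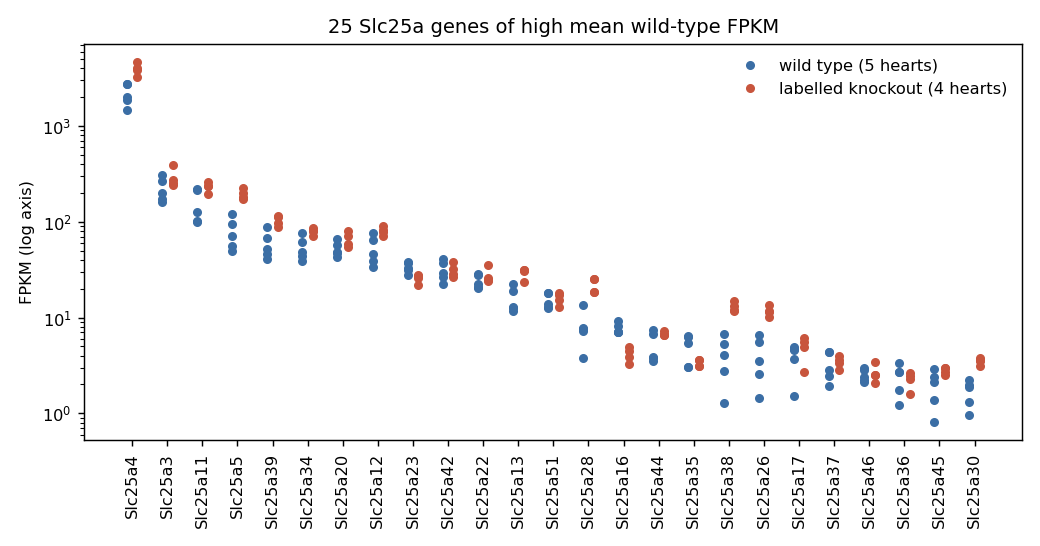
FPKM per heart on a log axis for 25 members of high wild-type mean. Slc25a4 stands above all other members in each group, at 1466 to 2747 in wild type.

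Reads of the whole family were 0.628% to 0.724% of nuclear reads in wild type and 0.638% to 0.780% in the labelled knockouts, which overlap. Of all assigned reads they were 0.263% to 0.475% and 0.540% to 0.702%, which do not overlap, beside the larger share of mitochondrially encoded reads in wild type. Slc25a4 alone took 51.9% to 57.1% of family reads in wild type and 57.8% to 62.2% in the labelled knockouts. The 10 untested members had at most 13 reads in a heart, and Slc25a54 had 0.

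Family members under other symbols were counted beside the 47. Ucp2, an uncoupling protein of many tissues, had 114, 353, 321, 173 and 168 CPM in wild type and 70.1, 106, 62.1 and 68.7 in the labelled knockouts. The groups did not overlap, and it fell by 1.55 ± 0.29 (edgeR adjusted p = 4.5e-04), or 1.96 with correction. Of the macrophage markers, Cd68 and Emr1 fell as well (-1.04 and -0.75), while Csf1r rose (0.42). The part of macrophages in the Ucp2 difference was not tested. Ucp3 of muscle fell by 0.71 (0.89 with correction). Mtch1 rose by 1.24 (0.47 with correction), and Mtch2 fell by 0.45 but was not called with correction. Ucp1 of brown fat had 1 read in all.

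Carriers are inserted through the TIM22 route. Of 7 such genes 4 were higher and 1 lower, where 26.2% and 25.2% of all genes were: Timm13, a small chaperone of the intermembrane space, rose by 1.52 (0.83 with correction) and Tomm70a, the receptor on the outer membrane, fell by 1.17 (not called with correction). All 3 Vdac genes, the outer membrane channels, were lower, 2 of them with correction as well. Of 14 other inner membrane transporters 5 were higher and 4 lower, with Abcb8 at 1.29 (0.80 with correction). Of 5 partners of the carnitine shuttle 2 were higher, with Cpt1b at 1.11 (0.83 with correction). With correction 2 were higher and 1 lower, Crat at -0.32 (edgeR adjusted p = 0.022). In wild type Cpt1b averaged 6.49 CPM but 169 FPKM, against 170 CPM and 65.7 FPKM for Cpt2, so its counts and FPKM conflict. By limma-trend on log2(FPKM + 1) Cpt1b rose by 0.94, and by 0.45 with median centring. Of 4 enzymes of the malate-aspartate shuttle 1 was higher. With correction 1 was higher and 1 lower, Got2 at -0.58 (edgeR adjusted p = 0.0029). Of 6 genes that make or use the exchanged ATP, 5 were higher without correction and 2 with it.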

How the data were processed

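Poly(A) RNA of 5 wild-type and 4 labelled knockout hearts was sequenced as single-end libraries without strand, per the labels' protocols. The authors deposited read counts per gene (23457 rows) and FPKM values per gene. Per the submitters' processing notes the tools included TopHat2 2.0.10, HTSeq and Cufflinks 2.1, on mm10. The annotation and strand setting were not given in the sources used here.

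Counts were tested with edgeR 4.0.16 in R 4.3.3 (TMM, filterByExpr with at least 10 reads and 15 in total, quasi-likelihood F test, Benjamini-Hochberg over 12640 genes, threshold 0.05). CPM are relative to TMM-scaled libraries. The corrected fit took as offsets a lowess trend (span 0.3) per heart, first on transcript GC content and then on length, for 99.2% of tested genes. True differences that track either property are lost with it. Log2(FPKM + 1) was tested with limma-trend (limma 3.58.1) where the mean reached 0.5, which understates changes of low genes. Other settings were RLE factors, DESeq2 1.42.0, limma-voom, no filter, a threshold of 0.1, omitted hearts, a replicate block, omitted mitochondrial rows and thinning to 1793083 reads. The fits were also run on simulated counts with means, spread and GC slopes taken from these hearts. Far fewer genes were changed there than were called here, so that run does not bear on the calls. Coordinates and transcripts are GRCm38, promoters RefSeq on GRCm38.p6.

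The members and lists were chosen with earlier results of these data known. Per-heart values were given for tested ADP/ATP, phosphate, carnitine and iron carriers, and in other groups for called members with an absolute log2 fold change of at least 1 and the member of highest FPKM. Slc25a26, close to that size, was added after its values were seen. The targeted gene, and 1 member's own values, are not reported here. No 2 hearts held identical values. Same-numbered hearts did not deviate together (correlations -0.26 to 0.04). The labels state no pairing, so the numbers entered only the replicate block, an alternative to the main fit.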

Additional observations from a re-analysis of the deposited data

Results flagged for a closer look

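Of 74 groups of hearts examined (37 members in 2 genotypes), 5 held a heart that stood far from the rest of its group, where chance gives about 1 in 20. Slc25a24, an ATP-Mg/phosphate carrier, was highest in WT heart 3 at 3.85 CPM (next 2.43) and in KO heart 4 at 4.37 CPM (next 2.65). Slc25a38, the glycine carrier, was highest in KO heart 4 at 17.97 CPM (next 14.1). Slc25a39, a glutathione carrier, was highest in WT heart 1 at 123 CPM (next 102). Slc25a44, a carrier of branched-chain amino acids, was highest in KO heart 4 at 19.6 CPM (next 18.4). Without KO heart 4 the corrected call of Slc25a24 was lost.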

How the results depend on the processing

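Of the 20 members called, 20 kept the call with RLE factors, limma-voom or omitted mitochondrial rows, 19 with DESeq2, 15 to 19 with 1 heart left out, 16 without both shallow wild-type hearts and 11 with GC and length correction. The replicate block kept 13 calls, with 8 higher and 5 lower, and it kept 10 beside the correction. In FPKM, median centring gave 11 higher and 10 lower, and leaving out a heart gave 1 to 2 lower (2 without WT heart 1). Depth limits the low members, since WT hearts 2 and 3 hold few reads of them. The correction without both shallow wild-type hearts was added after seeing the data.

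Ratios with 1 heart left out ranged from -0.57 to -0.43 for Slc25a4 to Slc25a5, -0.27 to -0.18 for Slc25a12 to Slc25a13, 1.21 to 1.54 for Slc25a28 to Slc25a37, -2.36 to -1.58 for Slc25a22 to Slc25a18, 2.24 to 2.54 for Slc25a33 to Slc25a36, 0.83 to 1.23 for Slc25a39 to Slc25a40 and -1.30 to -1.09 for Slc25a23 to Slc25a24. All 7 lost the call in some of these, where fewer splits exist. On corrected counts Slc25a12 to Slc25a13 was -0.15, Slc25a28 to Slc25a37 0.45 and Slc25a39 to Slc25a40 -0.45, and none of these 3 passed.

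Log2 fold changes that turned sign follow, and the cause was not tested. With correction they were -0.28 for Slc25a11, 0.12 for Slc25a17, 0.23 for Slc25a32, -0.57 for Slc25a34, 0.040 for Slc25a36, -0.45 for Slc25a39, -0.29 for Slc25a45 and 0.22 for Slc25a46. With the replicate block and correction they were -0.096 for Slc25a1, -0.28 for Slc25a11, 0.091 for Slc25a17, 0.12 for Slc25a32, -0.60 for Slc25a34, 0.15 for Slc25a36, -0.46 for Slc25a39, -0.35 for Slc25a45 and 0.26 for Slc25a46. With correction but without both shallow hearts they were -0.40 for Slc25a11, 0.13 for Slc25a17, -0.024 for Slc25a27, 0.15 for Slc25a32, -0.55 for Slc25a34, -0.51 for Slc25a39, 0.025 for Slc25a40, -0.17 for Slc25a45 and 0.23 for Slc25a46. Without both shallow hearts and uncorrected they were -0.065 for Slc25a11, -0.015 for Slc25a12 and -0.094 for Slc25a27. The block alone gave -0.026 for Slc25a34 and -0.053 for Slc25a45, limma-voom -0.021 and thinning -0.017 for Slc25a34. With 1 heart left out Slc25a27 ranged from -0.089 to 0.17, Slc25a34 from -0.057 to 0.056 and Slc25a45 from -0.087 to 0.18.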
